A study of Mus musculus with 12 samples.

Results

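The genes described are 10 genes of prostaglandin and sphingosine 1-phosphate handling, picked by name for synthesis, breakdown, transport and reception and found by symbol in a count table of 54838 mouse genes. Of these, 7 encode enzymes, namely Ptgs1, Ptgs2, Ptges and Hpgd on the prostaglandin side and Sphk1, Sphk2 and Sgpl1 on the sphingosine 1-phosphate side. The remaining members are the prostaglandin transporter Slco2a1 and the receptors Ptger4 and S1pr1. All 10 members had enough counts to enter the test, among 15938 genes that did. The measurements were RNA-seq counts from whole ileum of C57BL/6J mice, which the study's methods describe as purchased females used between 8 and 14 weeks of age, in 4 groups of 3 mice. For 7 days the mice drank either plain water or 25 mM ZnSO4, then received 200 µg of the synthetic glucocorticoid dexamethasone (Dex) or its solvent PBS, and ileum was taken 2 h later. The groups are called water + PBS, ZnSO4 + PBS, water + Dex and ZnSO4 + Dex, and the comparisons ask what zinc, Dex and their combination did to ileal transcripts.

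Prostaglandins are made from arachidonic acid by the cyclooxygenases Ptgs1 and Ptgs2, and Ptges turns the intermediate into prostaglandin E2, which signals in the gut through receptors such as Ptger4. Cells take prostaglandins up through Slco2a1 and inactivate them with the dehydrogenase Hpgd. Sphingosine 1-phosphate is made from sphingosine by the kinases Sphk1 and Sphk2, is split irreversibly by the lyase Sgpl1, and acts through receptors such as S1pr1, which guides lymphocyte exit from lymphoid tissue and supports the endothelial barrier.

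Dex changed transcripts of prostaglandin synthesis and breakdown and of both sphingosine kinases, and fewer members passed with zinc. The members, like the lists described further below, were chosen with earlier results of these data known. Their counts beside the share of all genes are therefore not a test of enrichment. With Dex in water mice, 5 of the 10 members passed the test, against 9.93% of all genes tested. Hpgd, Sphk1 and Ptgs1 rose, and Ptges and Sphk2 fell. The count was 3 without water + PBS replicate 1 or 2 and without water + Dex replicate 1 or 3. With Dex in ZnSO4 mice the members that passed were the same 5 and in the same directions, against a background of 13.7%. With zinc alone 1 member passed, Hpgd, which rose (background 4.66%), and with zinc on top of Dex 1 member passed, Sphk1, which also rose (background 4.37%). Between mice given both agents and mice given neither, Hpgd, Sphk1 and Ptgs1 were higher and Ptges and Sphk2 lower, again 5 of 10, where 23.3% of all genes passed. The other 5 members, Ptgs2, Slco2a1, Ptger4, Sgpl1 and S1pr1, passed in none of the 5 comparisons, and 28.5% of all genes tested passed in at least 1 of them. Passing means an adjusted p under 0.05 from edgeR's quasi-likelihood test with Benjamini-Hochberg adjustment over all genes tested, and the log2 fold change (LFC) is always the group named before against the group named after. Zinc alone, Dex alone and the combination are all read against the same 3 water + PBS mice. Zinc on top of Dex, Dex in ZnSO4 mice and the combination all use the same 3 ZnSO4 + Dex mice. The comparisons are therefore not independent of each other.

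Total counts lay between 10760132 and 11827487 per library, so no group was markedly shallower. Levels are given as normalised counts, that is counts scaled to a library of 11377723 counts, and genes are compared with each other only per kb of exon. The Dex targets Fkbp5, Tsc22d3 and Per1 rose with Dex in water mice (LFC 3.34, 3.10 and 2.07), and the zinc-inducible metallothioneins Mt1 and Mt2 rose with zinc alone (LFC 4.79 and 5.38). Enterocyte markers were abundant in every library, and no marker of the cell types examined was at 0 throughout a group. B cell markers differed widely between mice of the same group, from 306 to 6605 normalised counts summed over 7 genes in water + PBS, from 123 to 5000 in ZnSO4 + PBS, from 156 to 2384 in water + Dex and from 130 to 712 in ZnSO4 + Dex. Replicate 2 of ZnSO4 + Dex had the lowest sum of 7 ileal enterocyte markers of the 12 libraries (104887, against 145942 to 217310 in the 11 others) and the second highest of 6 smooth muscle markers (30347). In whole ileum, fewer cells of a type and less RNA per cell cannot be told apart.

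**Figure D1:**
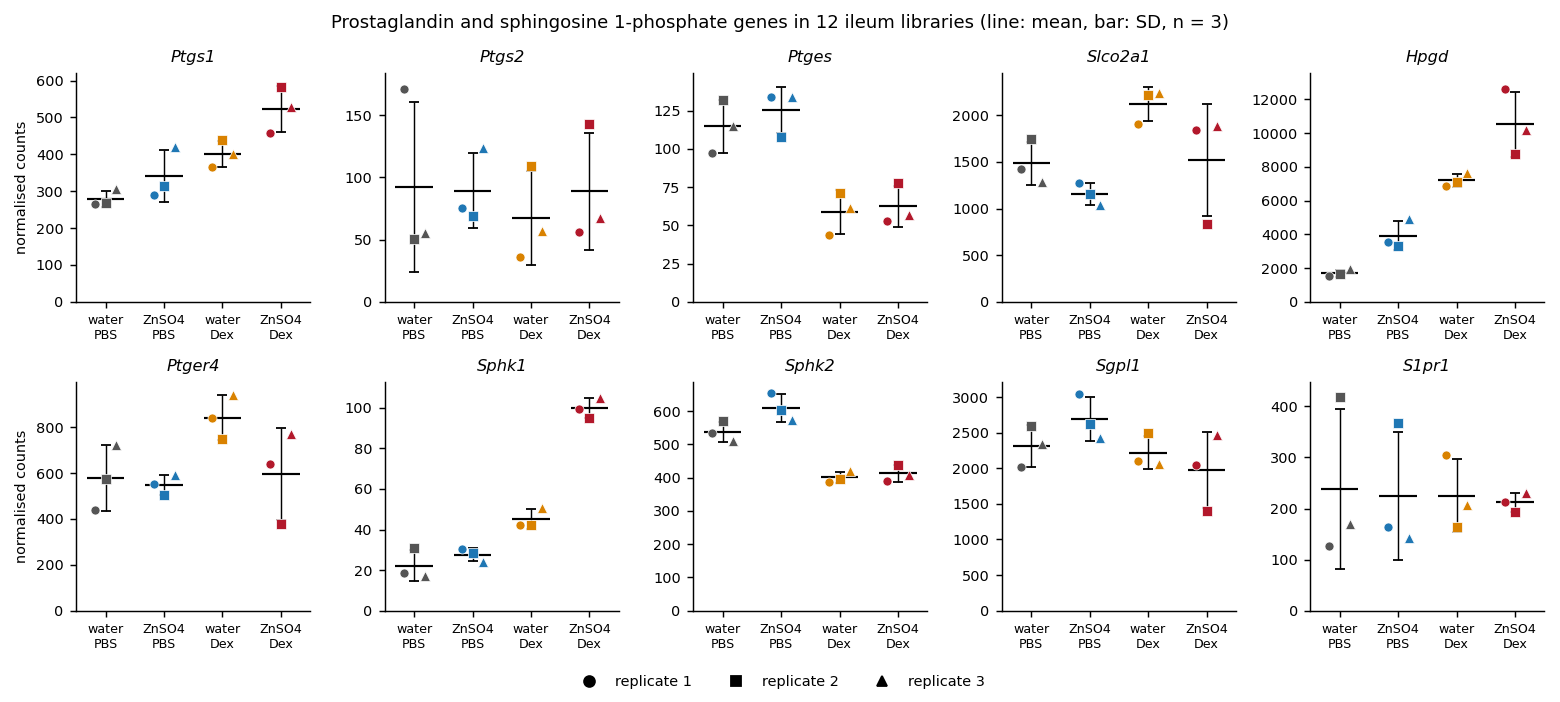
Normalised counts (vertical axes, each from 0) of the 10 genes in the 12 ileum libraries, by group on the horizontal axes, with symbols for replicates 1 to 3, lines for group means and bars for SD (n = 3). Hpgd climbed from 1691 in water + PBS to 10530 in ZnSO4 + Dex, Sphk1 stood apart in ZnSO4 + Dex at 99.8, and Ptges and Sphk2 were lower in both Dex groups.

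Ptgs1, the cyclooxygenase present in most tissues at rest, had 264, 268 and 305 normalised counts in the water + PBS mice. The counts were 290, 313 and 421 in ZnSO4 + PBS, 367, 438 and 400 in water + Dex, and 459, 583 and 528 in ZnSO4 + Dex. All Dex mice were above all PBS mice given the same drinking water, while the PBS groups overlapped. Ptgs1 rose 1.44-fold with Dex in water mice (LFC 0.53 ± 0.14 SE, adjusted p = 0.038) and 1.53-fold with Dex in ZnSO4 mice (LFC 0.62 ± 0.14, adjusted p = 0.013). The combination was 1.88-fold above water + PBS (adjusted p = 9.0e-04). Zinc alone gave an LFC of 0.29 (adjusted p = 0.29) and zinc on top of Dex 0.38 (adjusted p = 0.16), neither of which passed. The rise with Dex in water mice was near the threshold. It no longer passed when any 1 water + PBS library, any 1 water + Dex library or replicate 3 of ZnSO4 + Dex was left out, with adjusted p between 0.053 and 0.14 in these 7 of 12 fits. The rise with Dex in ZnSO4 mice was lost without ZnSO4 + PBS replicate 1 (0.059) or replicate 2 (0.054), or with only the groups compared in the fit (0.056). Smooth muscle markers were highest in the same libraries as Ptgs1 within both ZnSO4 groups, namely replicate 3 of ZnSO4 + PBS (30818) and replicate 2 of ZnSO4 + Dex, and spanned 14568 to 19021 in water + PBS, 17110 to 30818 in ZnSO4 + PBS, 18286 to 19450 in water + Dex and 20889 to 30347 in ZnSO4 + Dex. Of the 6 smooth muscle markers, 1 (Myh11) passed, in the combination, and a smooth muscle score was tried as a covariate after seeing the data. No Ptgs1 call was lost with it, while the LFC came to 0.098 with zinc alone, 0.18 with zinc on top of Dex and 0.64 with the combination, in place of 0.29, 0.38 and 0.91. Fibroblast markers, too, were highest in replicate 3 of ZnSO4 + PBS (19747) and replicate 2 of ZnSO4 + Dex (18754). Within water + Dex they were highest in replicate 2 (12923), as was Ptgs1. Within water + PBS they were highest in replicate 1 (14465), where Ptgs1 was lowest. The part of fibroblast RNA in the Ptgs1 values was not tested. With a B cell score as a covariate the rise with Dex in water mice no longer passed (LFC 0.46, adjusted p = 0.073).

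Ptgs2, the inducible cyclooxygenase, was the most uneven of the prostaglandin genes within groups. It had 171, 50.2 and 55.1 normalised counts in water + PBS, 75.4, 68.6 and 124 in ZnSO4 + PBS, 35.7, 109 and 57.3 in water + Dex, and 56, 143 and 67.3 in ZnSO4 + Dex. In each group 1 mouse was well above the other two, and all groups overlapped. The lowest adjusted p over the 5 comparisons was 0.68, for an LFC of -0.45 ± 0.55 with Dex in water mice, so that a change of the size seen for Ptgs1 was not detectable with this spread.

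Ptges, the microsomal prostaglandin E synthase that works downstream of the cyclooxygenases, went the other way from Ptgs1. It had 97.3, 132 and 115 normalised counts in water + PBS and 134, 108 and 134 in ZnSO4 + PBS, against 43.5, 71.3 and 61.6 in water + Dex and 52.9, 77.8 and 56.6 in ZnSO4 + Dex. Every Dex mouse was below every PBS mouse, and zinc and water mice overlapped under either injection. Ptges fell to 0.513 of its water + PBS level with Dex in water mice (LFC -0.96 ± 0.21, adjusted p = 0.013). With Dex in ZnSO4 mice it fell to 0.499 of its ZnSO4 + PBS level (LFC -1.0 ± 0.21, adjusted p = 0.0074). It was also lower with both agents than with neither (LFC -0.88 ± 0.21, adjusted p = 0.011). With zinc alone the LFC was 0.13 (adjusted p = 0.77) and on top of Dex 0.09 (adjusted p = 0.87). The call with Dex in water mice was narrowly lost without water + PBS replicate 2 (0.0504) or water + Dex replicate 1 (0.0501). Of 7 endothelial markers, Kdr and Cldn5 also fell with Dex in water mice and in ZnSO4 mice, while the sum of the 7 spanned 1390 to 1747 in water + PBS, 1707 to 1730 in ZnSO4 + PBS, 1158 to 1277 in water + Dex and 1357 to 1513 in ZnSO4 + Dex. With the combination Kdr fell and Emcn rose. Of 5 lymphatic endothelial markers, Lyve1 rose with Dex in water mice, and Lyve1 and Mmrn1 rose with Dex in ZnSO4 mice. Lyve1, Reln and Mmrn1 rose with the combination. The sum of the 5 spanned 981 to 1097 in water + PBS and 1079 to 1198 in ZnSO4 + PBS. It spanned 1520 to 1738 in water + Dex and 1744 to 1751 in ZnSO4 + Dex. The part of endothelial RNA in the Ptges values was not tested.

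Slco2a1, the carrier that brings prostaglandins into cells, had 1427, 1741 and 1282 normalised counts in water + PBS and 1274, 1160 and 1034 in ZnSO4 + PBS. With Dex it had 1910, 2220 and 2236 in water mice and 1844, 833 and 1884 in ZnSO4 mice. The water + Dex mice were above all water + PBS mice and the ZnSO4 + PBS mice below them, but no comparison passed. The LFC was 0.52 ± 0.24 with Dex in water mice (adjusted p = 0.24), 0.39 ± 0.25 with Dex in ZnSO4 mice (0.35), -0.36 ± 0.25 with zinc alone (0.46) and -0.48 ± 0.24 with zinc on top of Dex (0.32). The lowest library was ZnSO4 + Dex replicate 2, the one with few enterocyte markers. Without it, Slco2a1 rose with Dex in ZnSO4 mice (LFC 0.69 ± 0.13, adjusted p = 0.0051). The rise with Dex in water mice then also passed (adjusted p = 0.014) at the same LFC of 0.52, with an SE of 0.12 in place of 0.24. With only the groups compared in the fit, the difference with Dex in water mice passed too (adjusted p = 0.039).

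Hpgd, the dehydrogenase that inactivates prostaglandins, had the largest LFC of the 10 members with zinc alone, with Dex alone and with both agents. It had 1518, 1630 and 1926 normalised counts in water + PBS, 3543, 3285 and 4894 in ZnSO4 + PBS, 6864, 7119 and 7634 in water + Dex, and 12599, 8777 and 10213 in ZnSO4 + Dex. The 4 groups followed each other without any overlap, in the order water + PBS, ZnSO4 + PBS, water + Dex and ZnSO4 + Dex, though ZnSO4 + PBS and water + Dex were not tested against each other. Zinc alone raised Hpgd 2.31-fold (LFC 1.21 ± 0.17, adjusted p = 0.003) and Dex alone raised it 4.26-fold (LFC 2.09 ± 0.17, adjusted p = 1.7e-05). Dex in ZnSO4 mice raised it 2.69-fold (LFC 1.43 ± 0.17, adjusted p = 1.9e-04), and mice given both agents were 6.22-fold above mice given neither (LFC 2.64 ± 0.18, adjusted p = 2.5e-06). All of these calls held when any 1 of the 12 libraries was left out. Zinc on top of Dex gave 1.46-fold (LFC 0.55 ± 0.17), which did not pass with edgeR (adjusted p = 0.095) and passed with DESeq2 (LFC 0.54, adjusted p = 0.023). Per kb of exon Hpgd was also the most abundant member in every group, at 1005 ± 125 normalised counts per kb in water + PBS (SD, n = 3) and 6256 ± 1147 in ZnSO4 + Dex, ahead of Sgpl1 at 377 ± 47.5 and 321 ± 87.2.

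Hpgd lies on chromosome 8 (GRCm38, 56294585 to 56321043, plus strand). Its RefSeq promoter window, 250 bases before to 50 after the annotated start (chr8:56294302-56294601, GRCm38.p6, plus strand), is shown because Hpgd is the member that passed with both zinc and Dex. The capitals mark a match to the core of the metal response element, searched on both strands as TGCACNC or TGCGCNC, which ends shortly before the start.
Hpgd: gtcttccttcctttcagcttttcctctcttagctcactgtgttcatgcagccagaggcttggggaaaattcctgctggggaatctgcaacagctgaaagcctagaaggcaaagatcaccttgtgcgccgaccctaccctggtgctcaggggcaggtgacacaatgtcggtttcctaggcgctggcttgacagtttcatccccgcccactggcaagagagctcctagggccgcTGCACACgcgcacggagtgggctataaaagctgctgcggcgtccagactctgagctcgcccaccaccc
The match begins 18 bases before the start, on the plus strand. Such cores were found in 25.7% of all 32851 mouse windows of this length, and among the 14 windows of the members also in windows of Sphk1, Sphk2, Sgpl1 and Ptger4. The palindromic glucocorticoid response element, searched on both strands, was in none of the 14 windows and in 0.475% of all windows. These are letter matches in a short window and say nothing of binding.

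Ptger4, a prostaglandin E2 receptor of epithelial and immune cells, had 437, 575 and 724 normalised counts in water + PBS, 552, 504 and 591 in ZnSO4 + PBS, 841, 747 and 941 in water + Dex, and 639, 380 and 772 in ZnSO4 + Dex. The water + Dex mice were above all water + PBS mice, with a narrow gap, and ZnSO4 + Dex replicate 2 was the lowest of the 12 libraries. The LFC was 0.54 ± 0.23 with Dex in water mice (adjusted p = 0.18), 0.12 ± 0.23 with Dex in ZnSO4 mice (0.79) and -0.50 ± 0.23 with zinc on top of Dex (0.27), none of which passed. Of its exonic bases, 16.5% overlap exons of Ttc33 and Gm15937 on the opposite strand.

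Sphk1, the inducible sphingosine kinase, was the member with the fewest reads, with raw counts between 18 and 99 per library. It had 18.5, 31.1 and 17.1 normalised counts in water + PBS, 30.2, 28.4 and 24.1 in ZnSO4 + PBS, 42.4, 42.1 and 50.8 in water + Dex, and 99.5, 95.1 and 105 in ZnSO4 + Dex. The PBS groups overlapped, the water + Dex mice were above both, and the ZnSO4 + Dex mice were far above all others. Dex raised Sphk1 2.03-fold in water mice (LFC 1.02 ± 0.22, adjusted p = 0.012) and 3.61-fold in ZnSO4 mice (LFC 1.85 ± 0.21, adjusted p = 1.3e-04). Zinc alone gave 1.24-fold (LFC 0.31 ± 0.22, adjusted p = 0.49), and zinc on top of Dex raised Sphk1 2.21-fold (LFC 1.14 ± 0.20, adjusted p = 0.0093). The difference between these zinc effects, tested with edgeR as an interaction, did not pass (adjusted p = 0.95). Mice given both agents were 4.48-fold above mice given neither (LFC 2.16 ± 0.21, adjusted p = 3.8e-05). The rise with Dex in water mice was lost without water + PBS replicate 1 (adjusted p = 0.053), without water + Dex replicate 3 (0.057), or with only the groups compared in the fit (0.055). The calls in ZnSO4 + Dex held without any 1 library. Of 6 mast cell markers 3 could be tested, and 1 (Kit) rose with zinc on top of Dex, with Dex in ZnSO4 mice and with the combination. The sum of the 6 spanned 509 to 569 in water + PBS and 648 to 810 in ZnSO4 + PBS. It spanned 639 to 682 in water + Dex and 921 to 1180 in ZnSO4 + Dex. Going by the Kit levels that the study lists, Kit made up most of this sum. The sum is therefore not read as a change in mast cells. The part of mast cell RNA in the Sphk1 values was not tested.

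Sphk1 lies on chromosome 11 (GRCm38, 116530925 to 116536674, plus strand) and RefSeq gives it 5 promoter windows. The window of its most upstream start (chr11:116530850-116531149) and the first of a pair of overlapping windows with a metal response element core (chr11:116532194-116532493), both plus strand of GRCm38.p6, are shown because Sphk1 is the member whose level stood apart when both agents were given. The capitals mark the core, read on the minus strand 92 bases before this start and 99 bases before the start of the other window of the pair, which begins at 116532201.
Sphk1 upstream: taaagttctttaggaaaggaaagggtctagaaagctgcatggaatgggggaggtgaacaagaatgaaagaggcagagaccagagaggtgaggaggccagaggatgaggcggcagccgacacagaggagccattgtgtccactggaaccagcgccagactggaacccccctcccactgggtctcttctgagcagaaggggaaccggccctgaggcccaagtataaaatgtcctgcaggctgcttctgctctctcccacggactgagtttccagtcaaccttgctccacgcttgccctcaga
Sphk1 downstream: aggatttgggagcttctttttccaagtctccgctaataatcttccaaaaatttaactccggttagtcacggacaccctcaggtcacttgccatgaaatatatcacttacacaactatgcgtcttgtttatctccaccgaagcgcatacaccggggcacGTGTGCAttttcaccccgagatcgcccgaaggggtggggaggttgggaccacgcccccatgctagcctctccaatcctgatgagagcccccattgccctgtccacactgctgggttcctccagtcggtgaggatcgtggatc
The upstream window holds neither of the motifs searched, and the counts do not tell which start was used.

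Sphk2, the other sphingosine kinase, went against Sphk1. It had 535, 569 and 509 normalised counts in water + PBS, 654, 602 and 572 in ZnSO4 + PBS, 387, 395 and 420 in water + Dex, and 390, 439 and 408 in ZnSO4 + Dex. Every Dex mouse was below every PBS mouse, and the Dex groups overlapped. Sphk2 fell to 0.746 of its level with Dex in water mice (LFC -0.42 ± 0.08, adjusted p = 0.0052), to 0.676 with Dex in ZnSO4 mice (LFC -0.56 ± 0.08, adjusted p = 5.8e-04) and was lower with both agents than with neither (LFC -0.38 ± 0.08, adjusted p = 0.005). The last of these was lost with a smooth muscle score as a covariate (LFC -0.33, adjusted p = 0.054). The ZnSO4 + PBS mice were all above the water + PBS mice, by an LFC of 0.18 ± 0.08 that did not pass (adjusted p = 0.23). Of the exonic bases of Sphk2, 21.9% overlap exons of Dbp and Rpl18 on the opposite strand. The libraries were stranded, but the strand setting of the counting is not given in the sources used here. Rpl18, with group means of 2524 to 2963, had an LFC of 0.02 with Dex in water mice (adjusted p = 0.94), and Dbp, with group means of 7.29 to 18.3, had an LFC of -1.12 ± 0.42 (adjusted p = 0.13).

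Sgpl1, the lyase that ends sphingosine 1-phosphate signalling, had 2015, 2597 and 2342 normalised counts in water + PBS, 3040, 2618 and 2427 in ZnSO4 + PBS, 2109, 2496 and 2064 in water + Dex, and 2047, 1405 and 2468 in ZnSO4 + Dex. All groups overlapped, and the low value was again ZnSO4 + Dex replicate 2. No comparison passed, the nearest being Dex in ZnSO4 mice (LFC -0.45 ± 0.18, adjusted p = 0.13), which passed only without ZnSO4 + Dex replicate 3 (adjusted p = 0.034).

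S1pr1, a sphingosine 1-phosphate receptor of lymphocytes and endothelium, had 127, 418 and 169 normalised counts in water + PBS, 164, 368 and 142 in ZnSO4 + PBS, 304, 164 and 207 in water + Dex, and 212, 194 and 230 in ZnSO4 + Dex. The spread lay within groups rather than between them, and the LFC of the 5 comparisons lay between -0.17 and -0.08 with SE between 0.44 and 0.45. The 3 libraries with the most S1pr1 were also those with the most B cell marker counts, namely replicate 2 of water + PBS (6605), replicate 2 of ZnSO4 + PBS (5000) and replicate 1 of water + Dex (2384). None of the 7 B cell markers passed in any of the 5 comparisons. Of 7 T cell markers 1 (Cd8a) fell with zinc alone, 3 fell with zinc on top of Dex and 5 with the combination, and none passed with Dex under either drinking water. Their sum spanned 778 to 1458 in water + PBS, 379 to 834 in ZnSO4 + PBS, 767 to 1025 in water + Dex and 411 to 461 in ZnSO4 + Dex, and the part of T cell RNA in the S1pr1 values was not tested. With a B cell score as a covariate the S1pr1 LFC turned positive in each comparison, between 0.11 and 0.58, and none passed, so the sign of its differences depended on the fit.

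**Figure D2:**
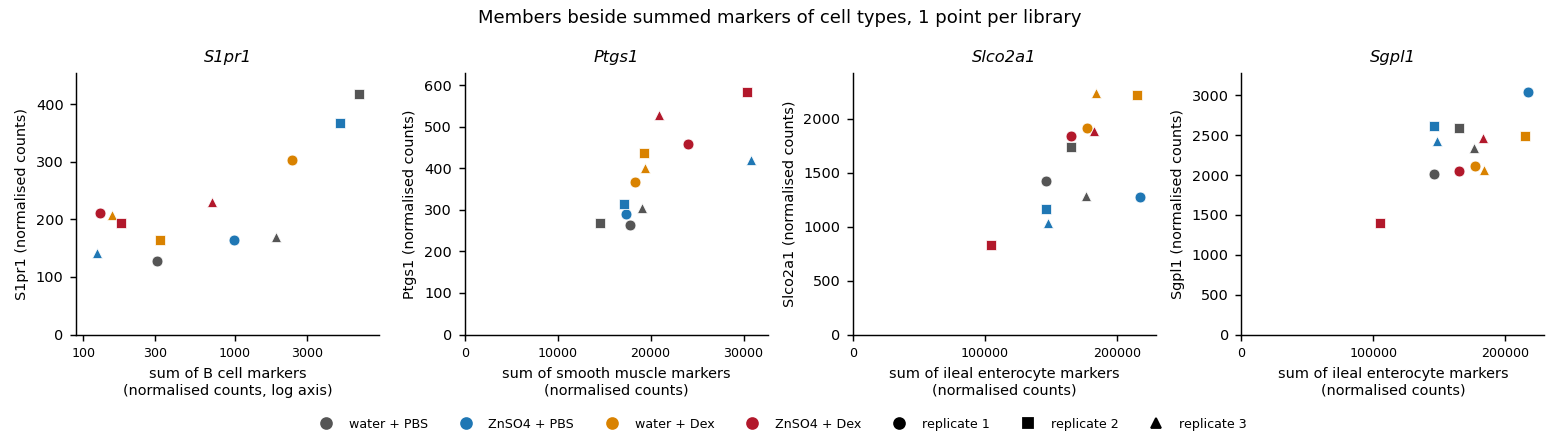
Normalised counts of S1pr1, Ptgs1, Slco2a1 and Sgpl1 (vertical axes, from 0) against the summed normalised counts of cell type markers (horizontal axes, the B cell axis on a log scale), with 1 point per library, colours for groups and symbols for replicates. The libraries with the most B cell marker counts (6605, 5000 and 2384) had the most S1pr1, and the library with the fewest enterocyte marker counts (104887) had the least Slco2a1 and Sgpl1.

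A looser and a stricter reading gave other counts. By raw separation of the groups, the members whose 3 mice of each group did not overlap numbered 7 with Dex in water mice (29.7% of all genes tested), 5 with Dex in ZnSO4 mice (29.1%), 3 with zinc alone (25.3%), 4 with zinc on top of Dex (25.9%) and 5 with the combination (36.9%). Adding the study's size cut-off, an LFC above 0.8 in size, left 3 members with Dex in water mice (Hpgd, Sphk1 and Ptges, against 4.42% of all genes), the same 3 with Dex in ZnSO4 mice (5.81%), Hpgd with zinc alone (1.7%), Sphk1 with zinc on top of Dex (1.9%) and 4 with the combination (9.66%). The Sphk2 falls and the Ptgs1 rises with Dex were thus smaller than that cut-off.

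**Figure D3:**
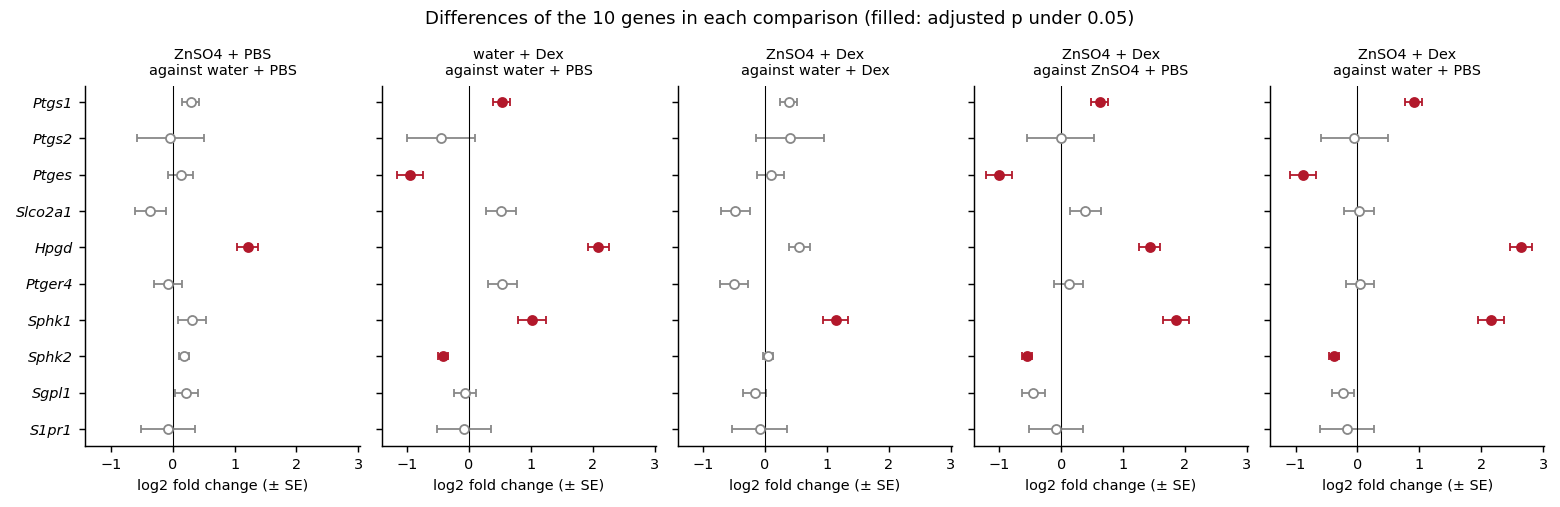
Log2 fold change of each member (horizontal axes, bars for SE) in the 5 comparisons, filled where the adjusted p was under 0.05. Hpgd reached 2.64 and Sphk1 2.16 with both agents against neither, Ptges lay between -1.0 and -0.88 wherever Dex was compared with PBS, and the wide bars of Ptgs2 and S1pr1 cross 0 in every panel.

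Whether zinc altered the Dex response was tested as an interaction. The estimated Dex effect on Hpgd was smaller in ZnSO4 mice than in water mice (interaction LFC -0.66 ± 0.24, unadjusted p = 0.017 and adjusted p = 0.95 with edgeR), and that on Sphk1 was larger (0.83 ± 0.30, unadjusted p = 0.018, adjusted p = 0.95). Neither passed, and with edgeR 0 of the 10 members and 0% of all genes passed after adjustment, as did 0 members with DESeq2. At an unadjusted p under 0.05 these 2 members stood among 794 genes (4.98%). For the 8 other members the interaction LFC lay between -0.42 and 0.45.

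Ratios taken within each library set the levels of paired members side by side. Per kb, Sphk1 made up 3.44 ± 0.962% of the summed Sphk1 and Sphk2 counts in water + PBS (SD, n = 3), 3.78 ± 0.215% in ZnSO4 + PBS, 8.91 ± 0.543% in water + Dex and 17.4 ± 1.36% in ZnSO4 + Dex. Single mice ranged from 2.84% to 4.55% in the PBS groups, from 8.49% to 9.52% in water + Dex and from 15.9% to 18.3% in ZnSO4 + Dex, so these 3 sets did not overlap and Sphk2 remained the more abundant kinase transcript in every mouse. The Hpgd level per kb was 14 ± 0.648 times that of Ptgs1 in water + PBS, 26.4 ± 2 times in ZnSO4 + PBS, 41.6 ± 3.58 times in water + Dex and 47.6 ± 14.5 times in ZnSO4 + Dex. The last of these was uneven, with 63.3, 34.7 and 44.7 in its 3 mice, and overlapped water + Dex. These ratios restate levels already given and were not tested.

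**Figure D4:**
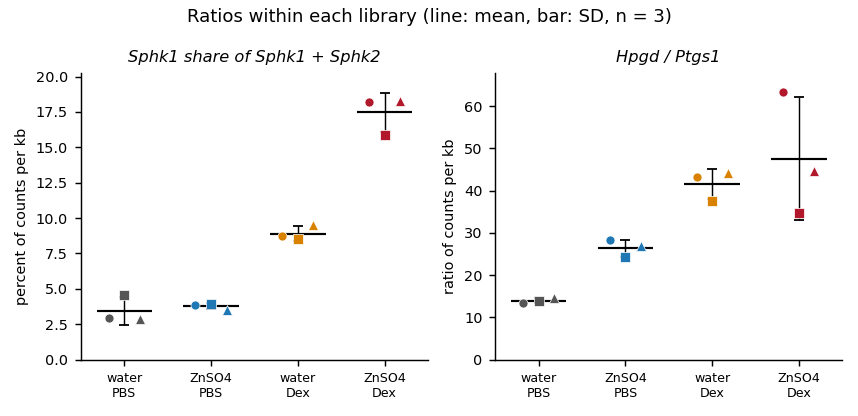
Share of Sphk1 in the summed Sphk1 and Sphk2 counts per kb (left, percent) and ratio of Hpgd to Ptgs1 counts per kb (right) in each library, by group, with lines for means and bars for SD (n = 3). The mean Sphk1 share was 3.44% in water + PBS and 17.4% in ZnSO4 + Dex, and the Hpgd to Ptgs1 ratio was lowest in water + PBS at 14.

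Beyond the members, 30 of 35 further genes of eicosanoid synthesis and reception could be tested. With zinc alone 2 of the 30 passed, with Dex in water mice 1, with zinc on top of Dex 2, with Dex in ZnSO4 mice 3 and with the combination 8 (3 higher, 5 lower). These were 6.67, 3.33, 6.67, 10 and 26.7% of the list, beside 4.66, 9.93, 4.37, 13.7 and 23.3% of all genes tested in the same comparisons, and the median LFC of the list stayed between 0.01 and 0.04 beside -0.01 to 0.01 for all genes tested. Pla2g5, a secreted phospholipase A2 that can free arachidonic acid, had 400, 248 and 267 normalised counts in water + PBS and 57.5, 65 and 77.8 in ZnSO4 + PBS. It had 373, 321 and 336 in water + Dex and 73.6, 108 and 84.4 in ZnSO4 + Dex, so that zinc mice were below water mice with either injection. Zinc lowered it to 0.219 (LFC -2.19 ± 0.21, adjusted p = 2.6e-04) and, on top of Dex, to 0.258 (adjusted p = 5.9e-04). Cbr1, a carbonyl reductase that can convert prostaglandin E2, rose with zinc alone (1.72-fold, adjusted p = 0.0047) and on top of Dex (1.86-fold, adjusted p = 0.0022). Ptgir, the prostacyclin receptor, fell with Dex in water mice to 0.294 (adjusted p = 0.0055) and in ZnSO4 mice to 0.362 (adjusted p = 0.011), at only 5.4 to 10.4 normalised counts in the Dex mice. Alox12, a lipoxygenase, fell with Dex in ZnSO4 mice (LFC -1.55 ± 0.39, adjusted p = 0.02) and with the combination (LFC -1.35, adjusted p = 0.029). It had only 3.11, 3.84 and 7.48 normalised counts in the ZnSO4 + Dex mice. The leukotriene B4 receptor Ltb4r1 rose with Dex in ZnSO4 mice (LFC 0.80, adjusted p = 0.034). The Alox12 and Ltb4r1 calls depended on single libraries. Alox12 with Dex in ZnSO4 mice was lost without ZnSO4 + PBS replicate 1 (adjusted p = 0.093) and without ZnSO4 + Dex replicate 1 (0.087) or 2 (0.075). Alox12 with the combination was lost without any 1 water + PBS library (0.058 to 0.078) and without ZnSO4 + Dex replicate 1 (0.11) or 2 (0.093). In edgeR this call was also lost without the filter on low counts (0.058) and with only the groups compared in the fit (0.056). A B cell score (0.054) or a smooth muscle score (0.12) as a covariate ended it too, as did DESeq2 (0.1). The Ltb4r1 call was lost in 8 of 12 fits, those without water + PBS replicate 1, ZnSO4 + PBS replicate 2 or 3, any water + Dex library, or ZnSO4 + Dex replicate 1 or 3 (0.051 to 0.12), and neither gene passed with Dex in ZnSO4 mice in DESeq2 (0.062 for Alox12 and 0.11 for Ltb4r1). The count of 8 with the combination was 4 without water + PBS replicate 3 or ZnSO4 + Dex replicate 1 and 5 without the filter on low counts or with a smooth muscle score as a covariate, the count of 3 with Dex in ZnSO4 mice was 1 without ZnSO4 + Dex replicate 1, and the count of 1 with Dex in water mice was 2 without water + PBS replicate 1 or 3.

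Of 46 further genes of sphingolipid metabolism and reception, 41 could be tested. The numbers that rose and fell were 3 and 1 with zinc alone, 4 and 3 with Dex in water mice, 2 and 4 with zinc on top of Dex, 5 and 3 with Dex in ZnSO4 mice, and 9 and 6 with the combination. These were 9.76, 17.1, 14.6, 19.5 and 36.6% of the list, beside 4.66, 9.93, 4.37, 13.7 and 23.3% of all genes tested, while the median LFC lay between -0.04 and 0.04. Acer1, a ceramidase that yields sphingosine, was higher in every ZnSO4 + PBS mouse (161, 132 and 251 normalised counts) than in any water + PBS mouse (92.4, 74.2 and 87.4). It rose with zinc alone (LFC 1.10 ± 0.21, adjusted p = 0.015) and on top of Dex (LFC 0.97 ± 0.21, adjusted p = 0.023). Mfsd2b, an exporter of sphingosine 1-phosphate known from blood cells, had 13.6, 30.1 and 18.1 normalised counts in water + PBS and 44.6, 45.4 and 56.2 in water + Dex. It rose with Dex in water mice (LFC 1.24 ± 0.28, adjusted p = 0.015) and in ZnSO4 mice (LFC 1.19 ± 0.27, adjusted p = 0.011). Plpp3, a phosphatase that acts on lipid phosphates, rose from 977 ± 38.9 in water + PBS to 1726 ± 60.6 with both agents (LFC 0.82 ± 0.09, adjusted p = 6.5e-05). Asah2, the neutral ceramidase of the gut brush border, had 750, 401 and 423 normalised counts in ZnSO4 + Dex against 1416, 2659 and 1422 in water + Dex and fell with zinc on top of Dex (LFC -1.81 ± 0.40, adjusted p = 0.027). Several of these calls depended on single libraries. Acer1 with zinc alone was lost without water + PBS replicate 2 (adjusted p = 0.053), and Mfsd2b with Dex in water mice without water + PBS replicate 1 or 3 or water + Dex replicate 3 (0.06 to 0.069). With zinc on top of Dex, Acer1 was lost without any 1 water + Dex library or ZnSO4 + Dex replicate 1 (0.066 to 0.093), and Asah2 without water + Dex replicate 2 or ZnSO4 + Dex replicate 2 or 3 (0.078 to 0.11). Of all 6 sphingolipid genes called with zinc on top of Dex, 1 was left without any 1 water + Dex library, 2 without ZnSO4 + Dex replicate 1, 3 without ZnSO4 + Dex replicate 2 and 0 in edgeR with a smooth muscle score as a covariate (adjusted p = 0.071 for Acer1 and 0.11 for Asah2). The 4 calls with zinc alone came to 1 and 2 without ZnSO4 + PBS replicates 1 and 3. The 7 with Dex in water mice came to 4 without water + PBS replicate 1 or 3 or water + Dex replicate 2 and to 3 without water + Dex replicate 3, and the 15 with the combination to 9 without ZnSO4 + Dex replicate 1, to 9 with only the groups compared in the fit and to 6 with the smooth muscle score.

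Some sphingolipid genes that passed at a smaller size, in comparisons other than the combination, are named here after their values were seen. Sgpp1, a phosphatase that turns sphingosine 1-phosphate back into sphingosine, fell with Dex in water mice (LFC -0.66 ± 0.08, adjusted p = 2.2e-04) and in ZnSO4 mice (LFC -0.47 ± 0.08, adjusted p = 0.0017), and its relative Sgpp2 fell with zinc alone (LFC -0.40 ± 0.10, adjusted p = 0.044), with which the lipid phosphatase Plpp1 rose (LFC 0.60 ± 0.11, adjusted p = 0.014). Plpp3 rose with Dex in water mice and with zinc on top of Dex (LFC 0.41 ± 0.09 in each, adjusted p = 0.011 and 0.022). Degs1, the desaturase that completes ceramide, and the lysosomal ceramidase Asah1 rose with Dex in water mice (LFC 0.48 and 0.41, adjusted p = 0.008 and 0.0049), while the sphingomyelinase Smpd2 fell (LFC -0.32, adjusted p = 0.027). With Dex in ZnSO4 mice Cers4, Degs1, Acer2 and Plpp3 rose (LFC 0.38 to 0.77) and Sgms2 and Ugcg, the glucosylceramide synthase, fell (LFC -0.66 and -0.64). Sptlc2, a subunit of the enzyme that starts sphingolipid synthesis, fell with zinc on top of Dex (LFC -0.70 ± 0.16, adjusted p = 0.031), as did Asah1 (LFC -0.33, adjusted p = 0.031) and Sgms1 (LFC -0.47, adjusted p = 0.045). Sgms2, a sphingomyelin synthase, rose with zinc alone (LFC 0.47 ± 0.09, adjusted p = 0.016) and fell with Dex in water mice (LFC -0.37 ± 0.09, adjusted p = 0.027). The sphingosine 1-phosphate exporter Spns2 and the receptors S1pr2, S1pr3 and S1pr4 passed in no comparison. S1pr2 had an LFC of -1.55 ± 0.50 with Dex in ZnSO4 mice (adjusted p = 0.064) and -1.43 ± 0.50 with the combination (0.061). S1pr4 had an LFC of -1.77 ± 0.71 with the combination (adjusted p = 0.096).

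**Figure D5:**
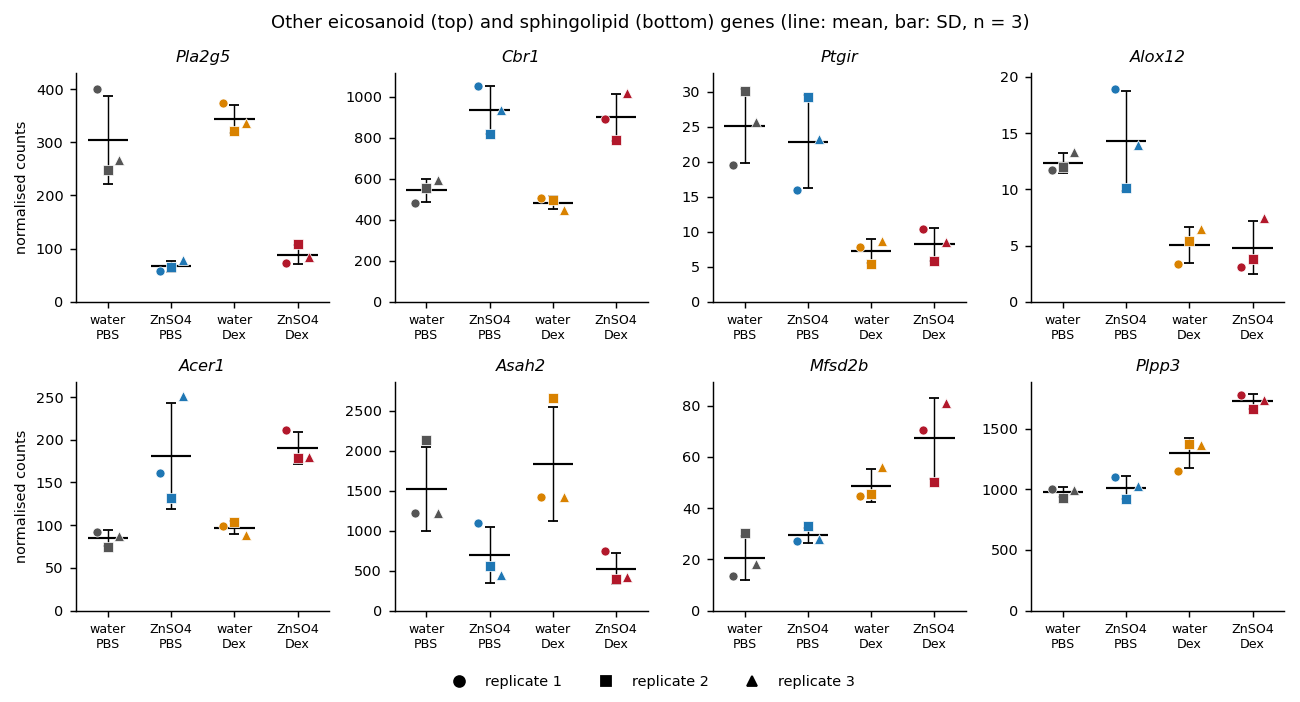
Normalised counts (vertical axes, from 0) of 4 eicosanoid genes (top) and 4 sphingolipid genes (bottom) by group, with symbols for replicates, lines for means and bars for SD (n = 3). Pla2g5 was lower and Cbr1 and Acer1 higher in both zinc groups, Ptgir was lower in both Dex groups, and Plpp3 ended at 1726 in ZnSO4 + Dex.

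The genes whose levels followed the members most closely over the 12 libraries were found by the Pearson correlation of log2 CPM (counts scaled to library size), a description across libraries that share treatments. Nearest to Hpgd were Edn1 (endothelin 1, r = 0.99), Gabarapl1 (an autophagy protein, r = 0.977) and Bco1 (the carotene-cleaving oxygenase, r = 0.976). Edn1 had group means of 20.5, 52.6, 99.5 and 171 in the order water + PBS, ZnSO4 + PBS, water + Dex and ZnSO4 + Dex, and Bco1 had 99.8, 246, 459 and 1108. Nearest to Sphk1 were Tox, Tbc1d8 and Slc37a4 (r = 0.963, 0.962 and 0.96), of which Slc37a4, the glucose 6-phosphate carrier, had means of 344, 398, 519 and 704. The endothelial receptor Kdr was among the 3 nearest to both Ptges and Sphk2 (r = 0.967 with each), with means of 341, 375, 175 and 194. Cdon (0.969) and Afap1l2 (0.946) completed the list for Ptges, and Aldh18a1 (0.973) and Casp9 (0.96) that for Sphk2. Nearest to Ptgs1 were Hspb7 (0.961), Cd9 (0.959) and F2r (0.959).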

How the data were processed

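Stranded single-end RNA-seq was done on ileum of 12 mice, 3 in each group, and groups and replicate numbers were taken from the labels. Per the labels and the study's methods, the authors trimmed reads (Trimmomatic), mapped them to mm10 with HISAT2 2.0.4 and counted them per gene with featureCounts without multimapping reads, and they deposited raw counts. Annotation release and strand setting are not given in the sources used here. Counts were analysed as deposited with edgeR 4.0.16 in R 4.3.3: filterByExpr (minimum count 10) left 15938 genes, which held 99.8% of counts, and TMM factors, 4 group means and quasi-likelihood tests were fitted to all 12 libraries (8 residual degrees of freedom, common biological coefficient of variation 0.191), with Benjamini-Hochberg adjustment over all genes tested. The scripts were tested on simulated counts. DESeq2 1.42.0 and the other alternatives are listed with their effects in the closing section. Replicates are taken as separate mice. None were duplicates: the chi-square per degree of freedom between replicates was 8.3 to 45.3. The members and lists were chosen with earlier results of these data known. Besides all members, genes of the 2 lists were named where the adjusted p was under 0.05 and the LFC above 0.8 in size, with 6 check genes and the 3 best correlated genes (mean CPM of at least 1, log2 CPM with prior count 2) of each member that passed. Gene names and positions came from GENCODE for GRCm38, and promoter windows, for 9 of the 10 members, from RefSeq.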

Additional observations from a re-analysis of the deposited data

How the results depend on the processing

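Of 80 LFCs of members and of the other genes named by rule, 80 kept direction and side of the threshold with RLE factors, 78 without the filter on low counts, 76 with DESeq2 and 68 of 75 with only the groups compared in the fit. The labels give replicate numbers but do not say whether these pair the mice. Same-numbered mice had a median correlation of deviations of -0.0557 over 18 pairs (-0.359 to 0.457). The median was 0.0225 over 36 others (-0.469 to 0.442). These ranges overlap, so the values do not settle whether the numbers stand for shared handling. With the replicate block 77 of 80 values were unchanged in this sense, the Ltb4r1 rise was lost, and S1pr1 turned to 0.0814 with Dex in water mice and 0.0382 with Dex in ZnSO4 mice. With zinc on top of Dex, DESeq2 called 2 members, Hpgd and Sphk1. The size cut-off of 0.8 left 3 members with Dex in water mice and 3 in ZnSO4 mice.

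With a B cell score as a covariate Ptgs1 with Dex in water mice was lost (LFC 0.46), Sgpl1 with Dex in water mice turned to 0.0423, and S1pr1 turned to 0.11 with zinc, 0.42 with Dex in water mice, 0.16 with zinc on top of Dex, 0.47 with Dex in ZnSO4 mice and 0.58 with the combination. A smooth muscle score as a covariate was chosen after seeing the data. It left Ptgs1, Hpgd, Sphk1 and Ptges with their calls and ended the Sphk2 call with the combination (LFC -0.33, adjusted p = 0.054). With it, zinc on top of Dex gave Ptgs2 -0.18, Ptges -0.0185 and Sgpl1 0.00603, Sgpl1 turned to 0.0131 with Dex in water mice and 0.0192 with the combination, and S1pr1 turned to 0.37, 0.15, 0.42, 0.20 and 0.57 in the same order of comparisons. With it, 0 of the 6 sphingolipid genes called with zinc on top of Dex passed, and the combination called 6 of the sphingolipid genes in place of 15 and 5 of the eicosanoid genes in place of 8. With only the groups compared in the fit, the sphingolipid counts were 2 in place of 4 with zinc, 2 in place of 6 with zinc on top of Dex and 9 with the combination, and the eicosanoid count with Dex in ZnSO4 mice was 1 in place of 3, as in DESeq2. Without the filter on low counts 5 eicosanoid genes passed with the combination. The cause was not tested.

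Leaving out each library in turn, the members that passed with Dex in water mice numbered 3 to 6, and those with Dex in ZnSO4 mice 4 to 6. Some LFCs of members without a call crossed 0. Ptgs2 ranged from -0.36 to 0.78 with zinc, -1.0 to 0.36 with Dex in water mice, -0.13 to 0.94 with zinc on top of Dex, -0.54 to 0.30 with Dex in ZnSO4 mice and -0.58 to 0.75 with the combination, and S1pr1, in that order, from -0.64 to 0.60, -0.39 to 0.60, -0.26 to 0.19, -0.33 to 0.47 and -0.47 to 0.51. Ptger4 ranged from -0.23 to 0.12 with zinc, -0.11 to 0.36 with Dex in ZnSO4 mice and -0.19 to 0.29 with the combination, and Slco2a1 from -0.15 to 0.33 with the combination. Sgpl1 ranged from -0.16 to 0.0287 with Dex in water mice and, with zinc on top of Dex, from -0.37 to 0.0214, Ptges there from -0.10 to 0.26 and Sphk2 from -0.00765 to 0.0787. The interaction ranged from -0.0161 to 0.27 for Ptgs1 and from -0.23 to 0.12 for Ptges. In each comparison the members that passed kept their direction in all 12 of these fits.

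Sphk1 rests on 18 to 99 reads per library, and with 3 mice per group the wide spread of Ptgs2 and S1pr1 leaves changes of the size seen for Ptgs1 undetectable.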
